A study of Mus musculus with 4 samples.

Results

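Transcripts of 10 genes of the hypoxia-inducible factor (HIF) system were followed in the left ventricle of young and aged mice: the HIF alpha subunits Hif1a, Epas1 and Hif3a, the oxygen-sensing prolyl hydroxylases Egln1 and Egln3, and the known targets Bnip3, Ddit4, Ankrd37, Ndrg1 and Adm. The genes were chosen by name among the 32285 genes counted. The material was droplet single-cell RNA sequencing of male Wild-Type C57BL/6J mice, in which each of the 4 conditions was 1 library. Young mice were 3 to 5 months old and aged mice 24 to 26 months old. In the ischemia-reperfusion (I/R) conditions, surgery on the left anterior descending artery (LAD) made the heart ischemic for 45 min, and tissue was taken after 24 h of reperfusion. The remaining conditions are called sham: the study describes sham mice, while the sample labels call the same mice healthy and unaltered, and label the molecule as nuclear RNA. How many mice went into a library was not given in the sources used here. No spread between animals can therefore be stated, no test between conditions was possible, and every interval below covers counting error only.

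HIF is a transcription factor of an alpha and a beta subunit. In normal oxygen, prolyl hydroxylases mark the alpha subunit for capture by the von Hippel-Lindau protein and for degradation, so the activity of the system is set largely at the protein and not at the transcript. When oxygen falls, the alpha subunit persists, pairs with Arnt and switches on genes of glycolysis, vessel growth and mitochondrial turnover, as well as Egln3 and Egln1, which feed back on it. HIF binds short DNA elements with the core ACGTG or GCGTG.

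RefSeq promoter windows (250 bases before to 50 bases after the gene start, build GRCm38.p6) were found for 8 of the 10 genes, all except Epas1 and Ndrg1. Each of the 8 held ACGTG or GCGTG on 1 strand or the other, against 43.8% of all 32851 windows, and 87.5% of the 8 held at least 2 such cores, against 17.2% of all windows. ACGTG was present in 75% of the windows of the 8 genes and in 19.6% of all windows, and GCGTG in 75% and 32.4%. The windows of the 8 genes were also richer in G and C, with a median of 69% against 52.7%, and these letters make up most of both cores. A core in a window is a match of letters and not a measured binding site. For 5 genes on which the comparisons below turn, stretches of 60 bases upstream of the start are shown (Hif3a, with few UMIs, is left out). These stretches were picked to hold the most separate runs of the cores, so their density of cores does not stand for upstream sequence at large. They are written 5′ to 3′ on the strand of the gene, with the cores on either strand in capitals (CACGT and CACGC are the same cores read on the opposite strand, and CACGTG holds ACGTG on both strands).
Ddit4: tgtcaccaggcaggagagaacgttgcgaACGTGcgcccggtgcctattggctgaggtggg
Bnip3: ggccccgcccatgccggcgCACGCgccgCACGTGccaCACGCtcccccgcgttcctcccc
Ankrd37: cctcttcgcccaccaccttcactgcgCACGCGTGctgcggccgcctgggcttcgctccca
Egln3: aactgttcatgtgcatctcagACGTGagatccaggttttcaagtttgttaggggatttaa
Adm: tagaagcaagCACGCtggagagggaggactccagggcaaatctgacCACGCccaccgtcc
The Ddit4 stretch lay at chr10:59951926-59951985 on the minus strand, the Bnip3 stretch at chr7:138909583-138909642 on the minus strand and the Egln3 stretch at chr12:54204065-54204124 on the minus strand, and none of these overlapped an annotated gene. The Ankrd37 stretch, at chr8:45999972-46000031 on the minus strand, lay in introns of longer Ankrd37 transcripts and of Lrp2bp. The Adm stretch, at chr7:110627557-110627616 on the plus strand, lay in an intron of Gm28863. The Bnip3 stretch held 3 separate runs of the core, more than any other stretch taken from the 8 genes.

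The libraries held 91124 to 102883 barcodes and, in young hearts, 25836175 without and 39673199 with I/R, and in aged hearts 41356670 and 66767829 unique molecular identifiers (UMIs), each standing for 1 captured molecule. Levels are given as CPM, the UMIs of a gene summed over all barcodes of a library, per 1000000 UMIs of that library. Each pair of libraries shared 2366 to 2843 barcode sequences. In such sums, fewer cells of a type and less RNA per cell cannot be told apart. Young sham stood apart in composition: the nuclear RNA Malat1 took 7.34% of its UMIs, against 2.22% in young hearts with I/R and 2.88% and 4.33% in aged hearts without and with it. Young I/R stood apart in Gm42418, which took 19.4% of its UMIs against 11.5% to 14.0% in the other libraries. The median log2 ratio over all genes tested was -0.48 for young I/R over young sham, 0.09 for aged I/R over aged sham, -0.14 for aged sham over young sham and 0.45 for aged I/R over young I/R. Each ratio below is therefore to be read against that median, and a second scaling is given beside it. This gene-wise scaling sets to 0 the median ratio of the 11881 genes with at least 50 UMIs in every library, and adds 0.43, -0.09, 0.14 and -0.38 to the 4 log2 ratios in the order above. Of the markers of the labelled tissue, 18 cardiomyocyte genes summed to 97288 to 120056 CPM, and no cardiomyocyte, endothelial, fibroblast or macrophage marker was at 0 in any library.

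**Figure D1:**
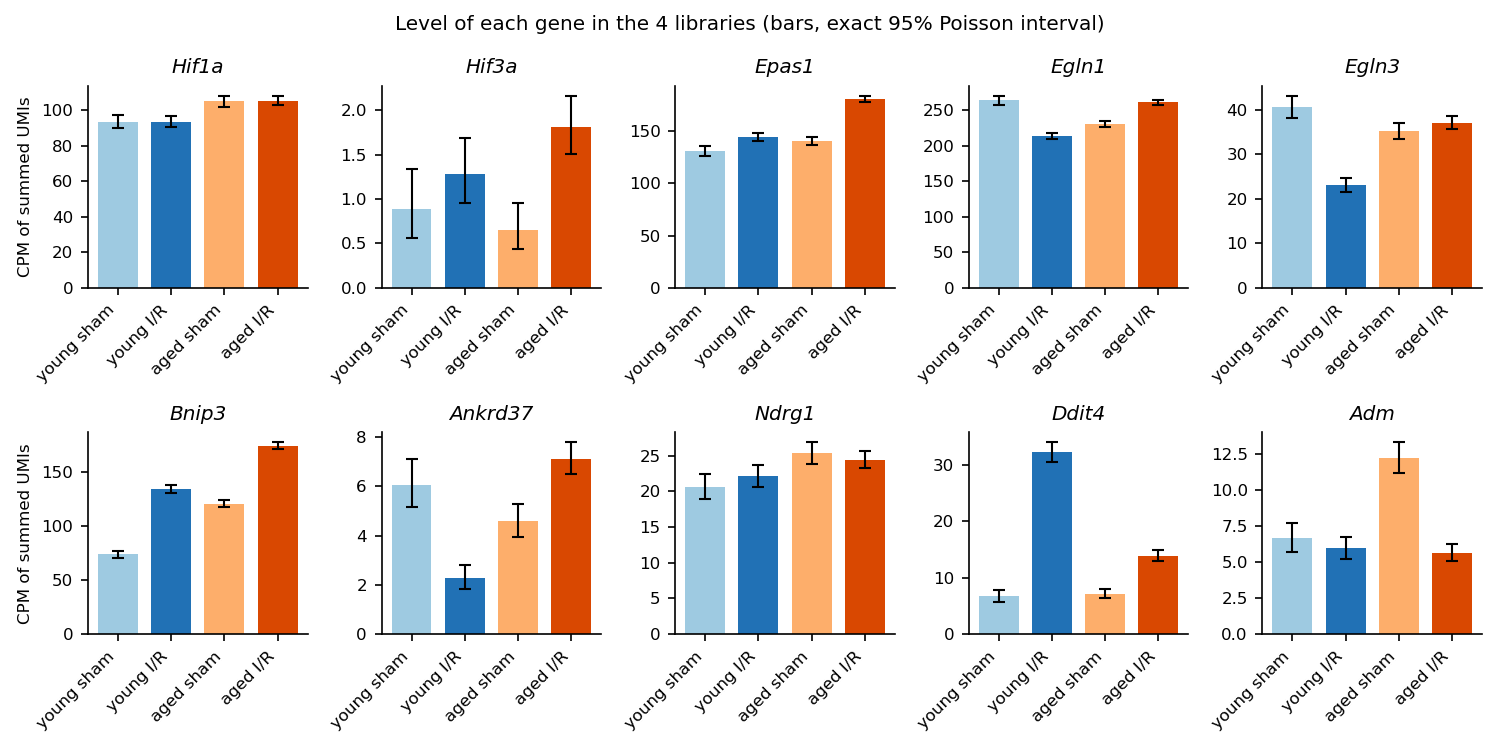
Level of each of the 10 genes in the 4 libraries, in CPM of summed UMIs on a linear axis from 0; bars are the values of single libraries and lines their exact 95% Poisson intervals. Hif1a is nearly level, Ddit4 peaks at 32.2 CPM in young I/R, Bnip3 is lowest in young sham at 73.6 CPM, and Adm is highest in aged sham at 12.2 CPM.

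Among the alpha subunits, Hif1a was steady across I/R at both ages, Epas1 was slightly higher after I/R, and Hif3a was higher in aged I/R than in aged sham. Hif1a, the widely expressed subunit on chromosome 12 (73901375 to 73947530, plus strand), stood in young hearts at 93.5 CPM without and 93.3 CPM with I/R, and in aged hearts at 105 CPM in both. Its log2 ratio of I/R to sham was -0.00 in young hearts (95% interval -0.08 to 0.07) and 0.00 in aged hearts (-0.05 to 0.06). Thus sham and I/R could not be separated at either age by CPM, whereas against the genes at large the young ratio was 0.43 under gene-wise scaling and the aged ratio -0.09. The aged level exceeded the young level by 0.17 on the log2 scale in sham, and by the same 0.17 after I/R, where the sign turned under gene-wise scaling (-0.21). Gm15283, an antisense gene whose exons overlap those of Hif1a, held only 26 to 182 UMIs per library.

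Epas1, which encodes HIF-2 alpha and is typical of endothelium, lies on chromosome 17 (86753700 to 86833410, plus strand). Young hearts had 131 CPM without and 145 CPM with I/R, and aged hearts 141 and 181 CPM. Aged I/R was the highest library, young I/R and aged sham could not be ordered beyond counting error, and young sham was the lowest. The log2 ratio of I/R to sham was 0.14 (0.08 to 0.20) in young and 0.36 (0.32 to 0.41) in aged hearts, and it was positive under every scaling tried, with 0.58 and 0.27 under the gene-wise one. The aged ratio was the larger by 0.22 with CPM, but the smaller by the gene-wise scaling, with a difference of -0.31. The 18 endothelial markers summed to 2049 and 1851 CPM in young hearts without and with I/R and to 2237 and 1980 CPM in aged hearts, so their order was not that of Epas1.

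Hif3a, whose products include forms that restrain the other subunits, was scarce. On chromosome 7 (17031507 to 17062427, minus strand), it gave 23 UMIs (0.890 CPM) without and 51 UMIs (1.29 CPM) with I/R in young hearts, and 27 UMIs (0.653 CPM) and 121 UMIs (1.81 CPM) in aged hearts. By CPM aged I/R was the highest library, 0.50 (0.01 to 0.997) above young I/R on the log2 scale, but under gene-wise scaling that difference was 0.11 (-0.37 to 0.61). The other 3 libraries could not be ordered between neighbours. The log2 ratio of I/R to sham was 1.47 (0.86 to 2.13) in aged hearts, a 2.78-fold higher level, and 0.53 (-0.21 to 1.31) in young hearts, whose interval included 0. The aged ratio minus the young ratio was 0.94, with an interval from 0.01 to 1.87. Under gene-wise scaling the aged ratio was 1.38 (0.77 to 2.04), the young ratio 0.96 (0.23 to 1.74) and the difference 0.42 (-0.51 to 1.35), so a difference between the ages was not separated from 0 there.

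The prolyl hydroxylases differed mainly in young I/R, where both had their lowest level. Egln1 (PHD2), the main oxygen sensor acting on HIF-1 alpha, lies on chromosome 8 (124908587 to 124949324, minus strand). Young hearts had 264 CPM without and 214 CPM with I/R, and aged hearts 230.3 and 261 CPM. Young sham and aged I/R could not be separated, and all 4 values lay within 1.23-fold. The log2 ratio was -0.30 (-0.35 to -0.26) in young and 0.18 (0.14 to 0.22) in aged hearts, and under gene-wise scaling the young sign turned, with 0.13 in young and 0.09 in aged hearts.

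Egln3 (PHD3), itself a strongly hypoxia-inducible gene, lies on chromosome 12 (54178981 to 54203860, minus strand). Young hearts had 40.7 CPM without and 23.0 CPM with I/R, while aged hearts had 35.3 and 37.1 CPM. Young I/R was thus the lowest library and the other 3 lay within a narrower band. The young ratio of I/R to sham was -0.82 (-0.95 to -0.69), a 1.77-fold lower level, and the aged ratio 0.07 (-0.02 to 0.17). Under gene-wise scaling the young ratio was -0.39, which is less than 1.5-fold, and the aged ratio -0.02. After I/R the aged level was 1.61-fold above the young level, a log2 ratio of 0.69 (0.58 to 0.80), and 0.31 under gene-wise scaling. The fall in the share of Malat1 from 7.34% to 2.22% ran between the same young libraries, as did a rise in Gm42418 from 11.5% to 19.4%, and their part in the result was not tested; with Malat1, Gm42418 and the mitochondrial genes left out of the total the young ratio was -0.67.

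Ddit4 and Bnip3 were the targets with higher levels after I/R at both ages. Ddit4 (REDD1), a stress-induced inhibitor of mTORC1 signaling, lies on chromosome 10 (59949669 to 59951834, minus strand). Young hearts went from 6.73 CPM (174 UMIs) without I/R to 32.2 CPM (1278 UMIs) with it, and aged hearts from 7.13 CPM (295 UMIs) to 13.9 CPM (930 UMIs). Both I/R libraries lay above both sham libraries, which could not be separated from each other. The log2 ratio of I/R to sham was 2.26 (2.03 to 2.49) in young hearts, or 4.78-fold, and 0.97 (0.77 to 1.16) in aged hearts, or 1.95-fold. The aged ratio was lower than the young ratio by 1.29 on the log2 scale (difference -1.29, interval -1.59 to -0.996), and the difference was -1.82 under gene-wise scaling. After I/R the aged level was 2.31-fold below the young level, with a log2 ratio of -1.21 (-1.33 to -1.09) by CPM and -1.59 by gene-wise scaling.

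Bnip3, a mitochondrial protein of mitophagy and cell death, lies on chromosome 7 (138890836 to 138909519, minus strand). Young hearts had 73.6 CPM without and 134 CPM with I/R, aged hearts had 120.4 and 174 CPM, and all neighbours in the order of these levels were separated beyond counting error. Aged sham thus lay only a little under young I/R. The log2 ratio of I/R to sham was 0.87 (0.79 to 0.94), or 1.82-fold, in young hearts and 0.53 (0.48 to 0.58), or 1.45-fold, in aged hearts. Aged sham exceeded young sham by 0.71 (0.63 to 0.79), or 1.64-fold, and by 0.85 under gene-wise scaling. After I/R the aged level was the higher by 0.38 (0.33 to 0.42) with CPM but level with the young one under gene-wise scaling (-0.0052). The antisense gene Gm45507, whose exons overlap those of Bnip3, had 3 to 40 UMIs per library.

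Markers of neutrophils moved in the same direction as Ddit4 and Bnip3. The 9 neutrophil markers summed to 17.6 and 108 CPM in young hearts without and with I/R and to 27.8 and 106 CPM in aged hearts, with 9 of 9 higher after I/R at both ages and Ly6g at 0 UMIs in young sham. The 2 I/R sums were close, whereas Ddit4 differed 2.31-fold between the same libraries. The sum of the 5 atrial cardiomyocyte markers ran in the order of Ddit4 after I/R. It was 124 and 235 CPM in young hearts without and with I/R and 117 and 86.8 CPM in aged hearts. The single markers did not all follow: 3 of 5 were higher after I/R in young hearts and 0 of 5 in aged hearts. After I/R, 2 of 5 were higher in aged than in young hearts, and 1 was at 0 in young I/R. The part of these cells in the Ddit4 and Bnip3 values was not tested.

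**Figure D2:**
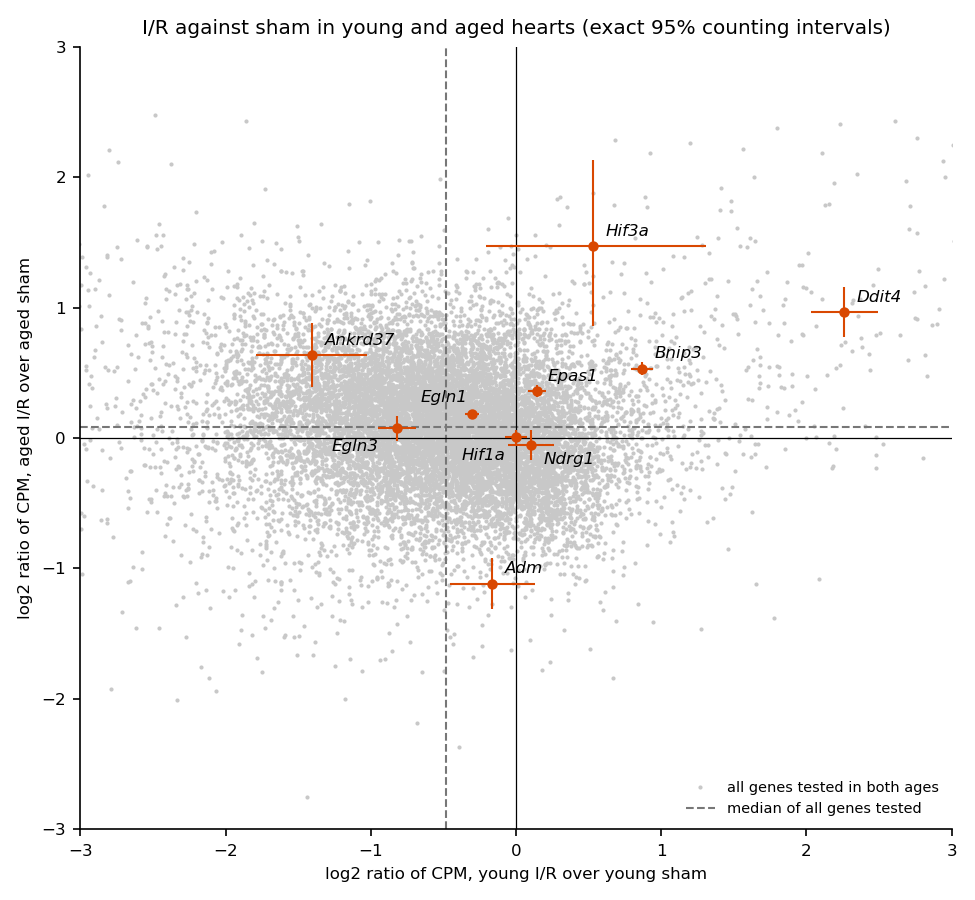
Log2 ratio of I/R to sham in CPM, young hearts on the x axis and aged hearts on the y axis; orange points are the 10 genes with exact 95% counting intervals, gray points the 13723 genes tested at both ages (155 lie outside the axes), and dashed lines the medians of all genes tested. Ddit4 and Bnip3 lie up at both ages, Ankrd37 lies down in young (-1.41) and up in aged hearts (0.63), and Adm lies down in aged hearts (-1.12).

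Ankrd37 and Adm took other courses. Ankrd37, a small ankyrin-repeat protein and a direct HIF-1 target, lies on chromosome 8 (45996902 to 46005707, minus strand). Young hearts had 6.08 CPM (157 UMIs) without and 2.29 CPM (91 UMIs) with I/R, and aged hearts 4.59 CPM (190 UMIs) and 7.13 CPM (476 UMIs). Young I/R was the lowest library, and aged I/R could not be separated from young sham. The log2 ratio was -1.41 (-1.79 to -1.02) in young hearts, a 2.65-fold lower level, and 0.63 (0.39 to 0.88) in aged hearts, a 1.55-fold higher level. The aged ratio minus the young ratio was 2.04 (1.59 to 2.48), and 1.51 under gene-wise scaling, which gave -0.97 and 0.54 for the 2 ages. After I/R the aged level was 3.11-fold that of young hearts, a log2 ratio of 1.64 (1.31 to 1.98).

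Ankrd37 shares its locus with the opposite-strand genes Ufsp2 and Lrp2bp, whose exons overlap its own, and the counting's use of strand was not given in the sources used here. Ufsp2 stood at 26.8 and 17.0 CPM in young hearts without and with I/R and at 17.3 and 27.2 CPM in aged hearts, and Lrp2bp at 2.90 and 0.529 CPM and at 2.03 and 1.74 CPM. Both neighbours also had their lowest value in the young I/R library. Ufsp2, like Ankrd37, was lower after I/R in young hearts and higher after it in aged hearts, while Lrp2bp was lower at both ages. The Ankrd37 values, and the opposite courses at the 2 ages, are uncertain to that extent. As with Egln3, the Malat1 share fell and the Gm42418 share rose between the same young libraries, and their part in the result was not tested; the young ratio was -1.26 without Malat1, Gm42418 and the mitochondrial genes in the total.

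Adm encodes adrenomedullin, a secreted vasodilator peptide, and lies on chromosome 7 (110627661 to 110629820, plus strand). Young hearts had 6.66 CPM (172 UMIs) without and 5.95 CPM (236 UMIs) with I/R, and aged hearts 12.2 CPM (505 UMIs) and 5.63 CPM (376 UMIs). Aged sham was the highest library, and the other 3 could not be ordered between neighbours. The log2 ratio of I/R to sham was -1.12 (-1.31 to -0.92) in aged hearts, a 2.17-fold lower level, and -0.16 (-0.45 to 0.13) in young hearts, whose interval included 0 and whose value was 0.27 under gene-wise scaling. Aged sham exceeded young sham by 0.88 (0.62 to 1.13), or 1.83-fold. The aged ratio of I/R to sham was the lower by 0.95 on the log2 scale (difference -0.95, interval -1.30 to -0.61), and by gene-wise scaling the difference was -1.48. The sums of fibroblast and macrophage markers were also highest in aged sham, as were those of endothelial, mural and lymphocyte markers. The 18 fibroblast markers summed to 1616 and 1259 CPM in young hearts without and with I/R and to 2179.9 and 1604 CPM in aged hearts. The 19 macrophage markers summed to 491 and 386 CPM and to 713 and 669.6 CPM. From aged sham to aged I/R the log2 ratio of the sum was -0.44 for fibroblast markers, of which 3 of 18 were higher. For macrophage markers it was only -0.09, and 10 of 19 were higher. For endothelial, mural and lymphocyte markers the same log2 ratio was -0.18, -0.06 and -0.79, with 6 of 18, 6 of 11 and 2 of 8 higher. The lymphocyte sum was only 10.7 CPM in aged sham. The part of any of these cells in the Adm values was not tested.

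Ndrg1, a stress-responsive cytoplasmic protein whose gene lies on chromosome 15 (66929318 to 66969640, minus strand), varied least among the targets. Young hearts had 20.6 CPM without and 22.1 CPM with I/R, and aged hearts 25.3 and 24.4 CPM. Sham and I/R could not be separated at either age, with log2 ratios of 0.10 (-0.06 to 0.26) and -0.05 (-0.17 to 0.06), which gene-wise scaling moved to 0.53 and -0.15. Aged sham exceeded young sham by 0.30 (0.14 to 0.45), and the aged excess after I/R, 0.14, turned to -0.24 under gene-wise scaling. Of the genes that overlap it, Gm17035 and Gm2895 had at most 4 UMIs in a library.

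A difference of at least 1.5-fold, among genes with at least 50 UMIs over the 2 libraries compared, was used to set the 10 genes against all genes. For young I/R over young sham, 2 of the 10 were higher (Bnip3 and Ddit4), where 5.65% of the 13745 genes tested were, and 2 were lower (Egln3 and Ankrd37), where 44.1% were. For aged I/R over aged sham, 3 were higher (Hif3a, Ankrd37 and Ddit4) against 15.4% of 14981 genes, and 1 was lower (Adm) against 8.22%. The median of the 10 log2 ratios was 0.05 in young hearts, beside -0.48 for all genes, and 0.27 in aged hearts, beside 0.09 for all genes. With so many genes lower in young I/R, the lower calls of Egln3 and Ankrd37 stood in a common direction, while the higher calls of Bnip3 and Ddit4 stood in an uncommon one.

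Between the ages in sham, 2 of the 10 were at least 1.5-fold higher in aged hearts (Bnip3 and Adm) against 7.24% of 14169 genes, and 0 were lower against 18.2%. Between the ages after I/R, 2 were higher in aged hearts (Egln3 and Ankrd37) against 41.1% of 14716 genes, and 1 was lower (Ddit4) against 3.51%. Gene-wise scaling made the background more even: 16.9% higher and 23.8% lower in young I/R over sham, 12.1% and 11.2% in aged I/R over sham, 11.2% and 12.0% in aged over young sham, and 20.2% and 12.4% in aged over young I/R. Under it the 10 genes gave 3 higher (Hif3a, Bnip3, Ddit4) and 1 lower (Ankrd37) in young I/R, and 2 higher (Hif3a, Ddit4) and 1 lower (Adm) in aged I/R. Between the ages it gave 2 higher (Bnip3, Adm) and 0 lower in sham, and 1 higher (Ankrd37) and 1 lower (Ddit4) after I/R. Ddit4, Bnip3, Ankrd37 and Adm thus kept their calls in each comparison under both scalings with 1 exception, Ankrd37 in aged I/R over aged sham.

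**Figure D3:**
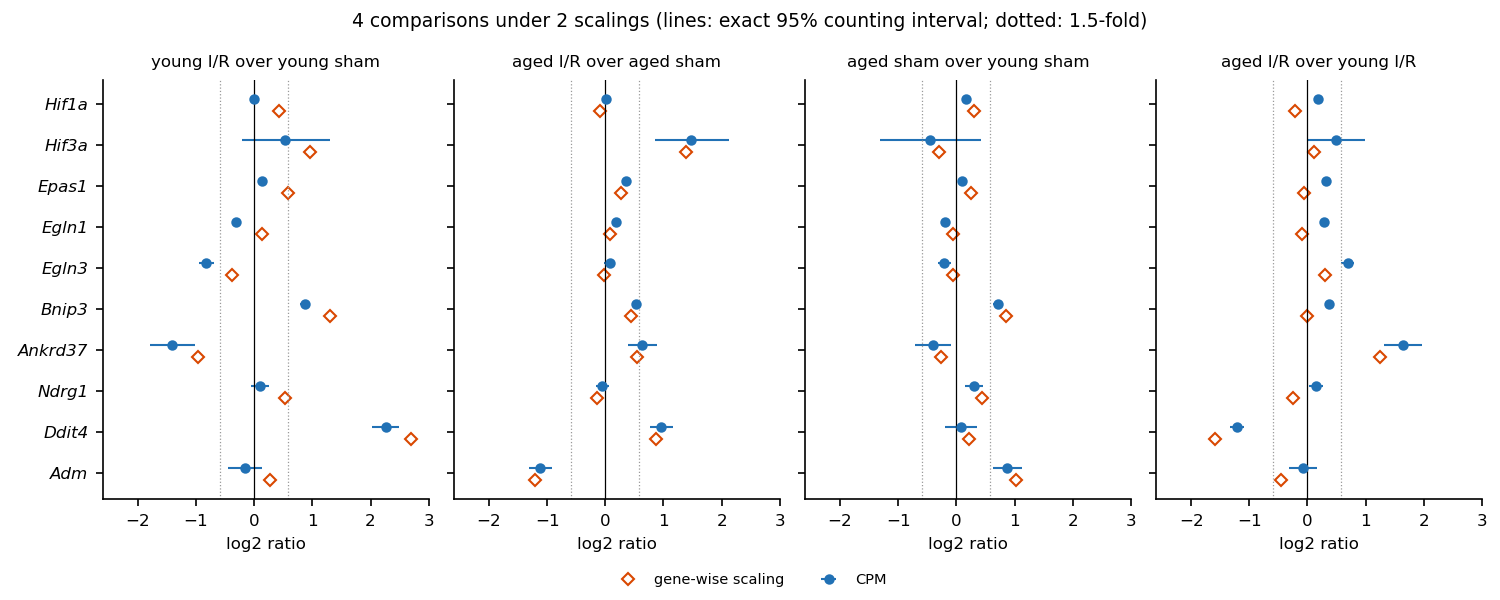
Log2 ratios of the 10 genes in the 4 comparisons; filled circles are CPM ratios with exact 95% counting intervals, open diamonds the same ratios under gene-wise scaling, and dotted lines mark 1.5-fold. Scaling shifts all genes of a comparison together, most in young I/R over young sham (by 0.43) and in aged over young I/R (by -0.38).

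The wider HIF system was described with 8 lists of 92 further genes. Their counts past 1.5-fold are to be read beside the shares of all genes tested. These were 5.65% higher and 44.1% lower in young I/R, and 15.4% and 8.22% in aged I/R. Under gene-wise scaling the shares were 16.9% and 23.8% in young I/R, and 12.1% and 11.2% in aged I/R. Of the genes that control or partner HIF, 13 of 14 had enough UMIs, and few of these passed 1.5-fold between sham and I/R by CPM: 0 were higher and 1 was lower in young I/R, and 1 was higher and 1 lower in aged I/R. Their median log2 ratio was -0.08 in young and -0.09 in aged hearts, beside -0.48 and 0.09 for all genes. Under gene-wise scaling 4 were higher and 0 lower in young I/R, and 0 higher and 2 lower in aged I/R. Between the ages after I/R, 2 of the 13 (Ep300, Crebbp) were higher in aged hearts and 0 lower, beside 41.1% and 3.51% of all genes. Gene-wise scaling gave 0 higher and 7 lower there, beside 20.2% and 12.4% of all genes. Arnt, the beta subunit, stood at 40.3 and 26.6 CPM in young hearts without and with I/R and at 30.9 and 39.4 CPM in aged hearts. Arnt was thus low in young I/R as Egln1 and Egln3 were, whereas Egln2 was highest there. The coactivator Crebbp ran alike, at 111 and 74.5 CPM in young and 77.2 and 119 CPM in aged hearts. Vhl, the substrate receptor that binds hydroxylated HIF, stood at 8.40 and 7.44 CPM in young and at 9.72 and 6.20 CPM in aged hearts, the aged log2 ratio being -0.65 (-0.85 to -0.45). Elob, which joins Vhl to its ubiquitin ligase, stayed between 146 and 182 CPM.

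Genes of glucose uptake and glycolysis stood above the general level in young I/R. All 18 had enough UMIs, and 4 were at least 1.5-fold higher (Slc2a1, Pfkfb3, Pgk1, Slc16a3) and 3 lower (Hk2, Pfkfb4, Eno1). Their median was 0.17 against -0.48 for all genes, and 15 of the 18 exceeded that median. After I/R in aged hearts only Hk2 was past 1.5-fold among the 18, and the median was 0.06 against 0.09. Slc16a3, the lactate exporter MCT4, was at 1.59 and 5.52 CPM in young hearts without and with I/R and at 2.49 and 3.65 CPM in aged hearts, which gave log2 ratios of 1.80 (1.31 to 2.32) and 0.55 (0.22 to 0.90). Hk2, the hexokinase of insulin-sensitive muscle, went opposite ways, from 354 to 159 CPM in young (log2 ratio -1.16) and from 141 to 293 CPM in aged hearts (1.05). Of the enzymes with the highest CPM, Gapdh had log2 ratios of 0.08 and 0.12 and Aldoa of 0.07 and 0.02 in young and aged hearts, and under gene-wise scaling all genes of the list moved up by 0.43 in young hearts, which gave 9 higher and 2 lower.

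Vascular and secreted targets spread widely. Of 14 with enough UMIs, 3 were higher (among them Angptl4 and Hmox1) and 7 lower in young I/R, and 5 were higher (among them Flt1, Edn1, Hmox1 and Cxcl12) and 2 lower (Apln, Tfrc) in aged I/R. The 7 of 14 lower in young I/R stood near the 44.1% of all genes that were lower there. The list median was -0.58 in young and 0.20 in aged hearts, beside -0.48 and 0.09 for all genes. Under gene-wise scaling the young counts were 4 higher and 4 lower, and the aged counts were again 5 and 2. Hmox1, heme oxygenase-1, stood at 2.28 without and 28.2 CPM with I/R in young hearts, and at 2.76 and 7.13 CPM in aged hearts, with log2 ratios of 3.62 (3.25 to 4.03) and 1.37 (1.07 to 1.68). As with Ddit4, the aged ratio was the smaller, with a difference of -2.25 (-2.73 to -1.77). Vegfa, the main angiogenic ligand, stood at 512 without and 132 CPM with I/R in young hearts, and at 269.6 and 246 CPM in aged hearts, so that its young ratio was -1.96 (-2.01 to -1.91) and its aged ratio -0.13 (-0.16 to -0.09). Its receptor Flt1 stood at 160.3 and 134 CPM in young and at 136 and 241 CPM in aged hearts, with an aged ratio of 0.83 (0.79 to 0.87). Apln, the ligand apelin, was lower in aged I/R by a log2 ratio of -1.56 (-1.85 to -1.29), from 7.35 to 2.49 CPM.

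**Figure D4:**
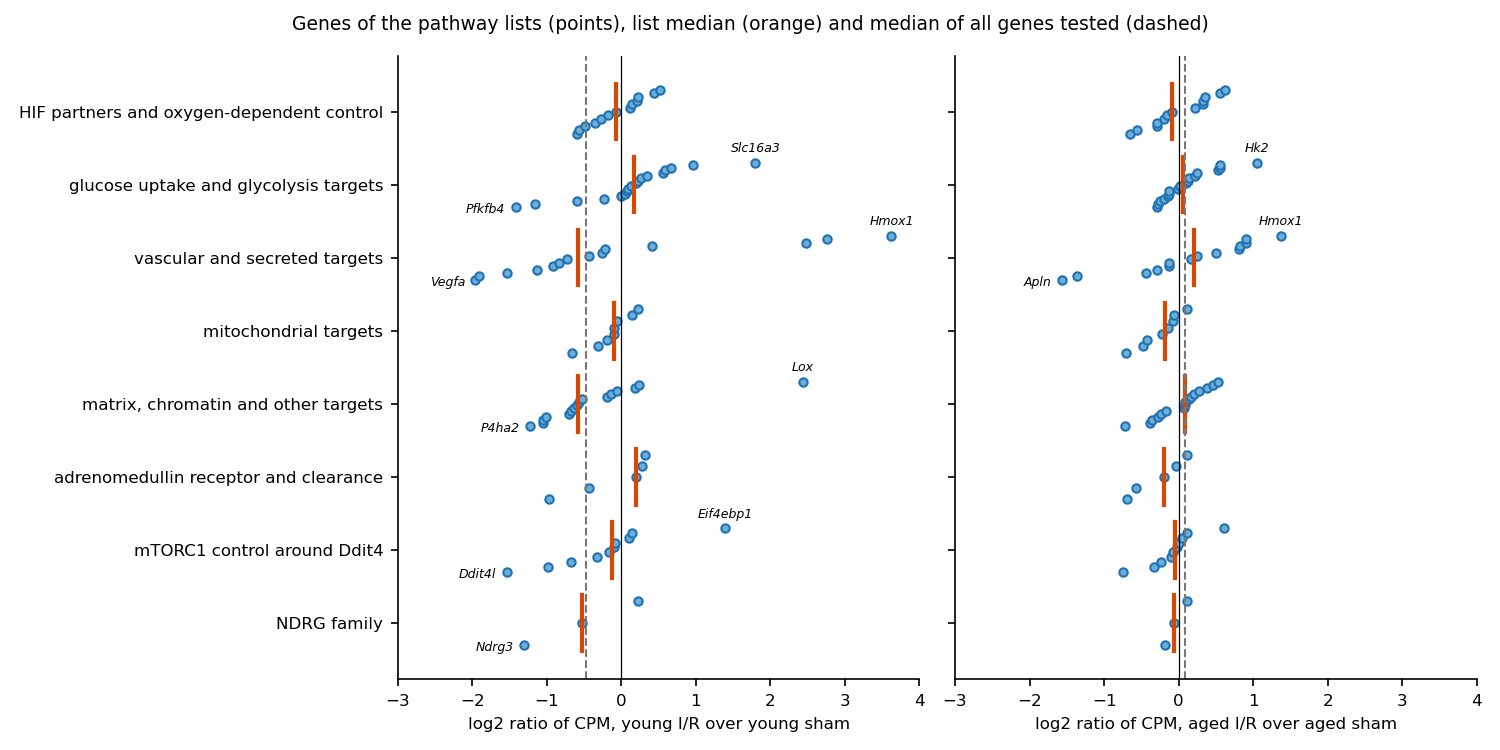
Log2 ratio of I/R to sham in CPM for the genes of the 8 lists with at least 50 UMIs over both libraries, young hearts left and aged hearts right; points are genes, orange bars list medians and dashed lines the medians of all genes tested (-0.48 and 0.09). Glycolysis genes lie mostly right of the dashed line in young hearts, and the vascular list spans from Vegfa (-1.96) to Hmox1 (3.62).

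Mitochondrial targets, the list nearest to Bnip3, had 0 of 8 genes higher and 1 lower in I/R at either age. Their medians were -0.09 in young and -0.18 in aged hearts, beside -0.48 and 0.09 for all genes, and 7 of the 8 exceeded the general median in young hearts but 1 of 8 in aged hearts. Gene-wise scaling gave 1 higher and 0 lower in young I/R, and 0 higher and 1 lower in aged I/R. Higd1a, which acts on the respiratory chain, stayed between 161 and 198 CPM and Fam162a between 85.3 and 93.7 CPM. Cox4i2, a subunit of cytochrome oxidase, had an aged ratio of -0.71, and Ndufa4l2 a young ratio of -0.66. The pattern of Bnip3, lowest in young sham and highest in aged I/R, was not that of these 4 genes.

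In the list of matrix, chromatin and other targets, 1 of 16 was higher (Lox) and 8 were lower in young I/R, the latter near the 44.1% of all genes. The young median was -0.58 beside -0.48 for all genes, and 0 were higher and 1 was lower in aged I/R. Under gene-wise scaling the young counts were 3 higher and 3 lower. Lox, which cross-links collagen, stood at 2.28 without and 12.4 CPM with I/R in young hearts, and at 4.93 and 7.10 CPM in aged hearts, with log2 ratios of 2.44 (2.05 to 2.85) and 0.53 (0.29 to 0.77). Vldlr, a lipoprotein receptor, had a young ratio of -0.70 and an aged ratio of -0.17, and Ppp1r3c, a glycogen-targeting subunit of protein phosphatase, had -0.06 and -0.72.

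The receptor side of adrenomedullin did not follow the aged I/R value of Adm in size. Of 5 genes with enough UMIs, 0 were higher and 1 was lower at either age, with medians of 0.20 in young and -0.20 in aged hearts beside -0.48 and 0.09 for all genes, and gene-wise scaling gave 3 higher and 0 lower in young I/R, and 0 higher and 2 lower in aged I/R. Calcrl, the receptor itself, had an aged ratio of 0.11 (0.01 to 0.22) and its partner Ramp2 -0.03 (-0.14 to 0.07), beside -1.12 for Adm. Ramp1, the partner that turns Calcrl into the CGRP receptor, had -0.70 (-0.94 to -0.46), and the scavenger receptor Ackr3 had -0.97 in young and -0.57 in aged hearts.

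Around Ddit4, the mTORC1 list had 1 of 10 higher (Eif4ebp1) and 3 lower in young I/R, and 1 higher (Tsc1) and 1 lower (Txnip) in aged I/R. Its medians were -0.13 and -0.04 beside -0.48 and 0.09 for all genes, and under gene-wise scaling 1 was higher and 1 lower in young I/R, and 0 were higher and 1 was lower in aged I/R. The close relative Ddit4l went the other way from Ddit4 in young hearts, from 2.05 to 0.706 CPM, a log2 ratio of -1.54 (-2.25 to -0.85). Sesn1, another stress-responsive inhibitor of the pathway, had 0.14 in young and -0.33 in aged hearts. Txnip, an inhibitor of glucose uptake, stood at 297 and 280.3 CPM in young and at 224 and 133 CPM in aged hearts. In the NDRG family beside Ndrg1, 0 of 3 were higher at either age: Ndrg2 stayed between 696 and 875 CPM, Ndrg4 between 41.0 and 59.0 CPM, and Ndrg3 had a young ratio of -1.31 (-1.48 to -1.14).

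The genes most like each of the 10 over the 4 libraries were found among 11881 genes with at least 50 UMIs in every library, by the root mean square difference of log2 CPM after each gene was centred on its mean. With 4 libraries this likeness is a description only. For Ddit4 they were Atf3 (0.063), Slc10a6 (0.136) and Gadd45g (0.152), and Atf3 stood at 2.09 without and 10.4 CPM with I/R in young hearts, and at 2.35 and 4.88 CPM in aged hearts. For Ankrd37 they were Cep128 (0.042), Sh3d19 (0.050) and Agbl3 (0.066), and for Adm they were Tspan6 (0.044) and Gm1673 (0.075). Bnip3 had no equally close gene, with Rpl3 (0.091), Alox5ap (0.103) and Srgn (0.118) the nearest. For Egln3 they were Zfp688, Rbbp5 and Ppp1r14c, for Egln1 Npat, Abhd5 and Rab5b, for Hif1a Ankrd28 and Tceal9, for Epas1 Samd8, Phka1 and Hmox2, and for Ndrg1 Lancl2, Ccdc43 and Bhlhb9, all within 0.020. Hif3a had too few UMIs for this comparison.

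The levels hardly differed between classes of barcodes. Of all barcodes, 241086 had at least 200 detected genes, and they formed 11 clusters when the 10 genes and the pathway lists were left out of the clustering. That minimum kept 28.4% of the barcodes of young sham, 55.2% of young I/R, 67.9% of aged sham and 98.8% of aged I/R, so the classes rest on unlike shares of the 4 libraries. From markers, clusters were called Endothelial-like (10413 barcodes), Fibroblast-like (20448), Macrophage-like (22725), Erythroid-like (45746) and Atrial cardiomyocyte-like (13305), and 51.0% to 59.4% of the barcodes of a library stayed in unnamed clusters. No cluster met the rule for the Cardiomyocyte class: the nearest, a cluster of 33878 barcodes led by Mhrt and Dmd, had 2 of 18 cardiomyocyte markers at 1.5-fold over the rest. The sum of a class's own markers exceeded that in the other barcodes by 0.51 (log2) in Endothelial-like, 0.85 in Fibroblast-like, 1.24 in Macrophage-like, 2.72 in Erythroid-like and 6.41 in Atrial cardiomyocyte-like barcodes. The Endothelial-like class was weakly marked: 6 of its 18 markers were at least 1.5-fold over the other barcodes, and the median log2 ratio of the 18 was 0.18. The level of Epas1 in Endothelial-like barcodes was 0.06 above that in the other barcodes, and that of Ndrg1 0.23 above. Barcodes were shallow, with a median of 433 to 586 UMIs over the clusters. The part of this depth in the small differences between classes was not tested. Across the 11 clusters Hif1a ranged from 89.9 to 114 CPM, Egln1 from 209 to 272 CPM and Bnip3 from 121 to 162 CPM. In 8 of the 10 genes no cluster was 1.5-fold above or below the rest. The exceptions were Hif3a, with 191 UMIs in all, in 2 clusters, and Ankrd37, with 742 UMIs, in 1 cluster.

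**Figure D5:**
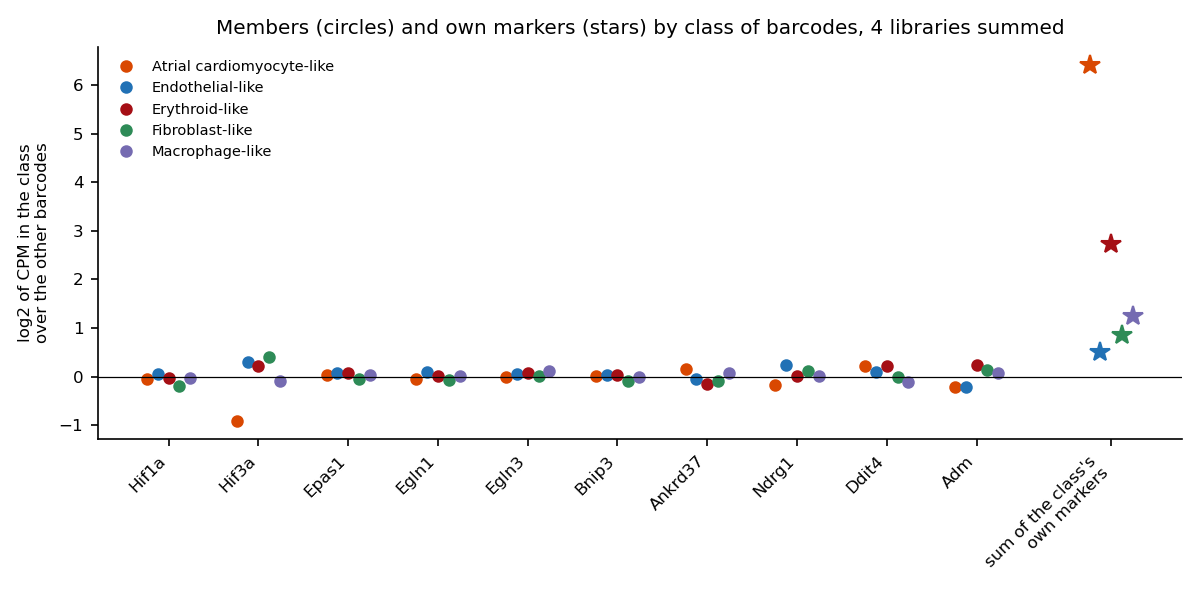
Log2 of the CPM in a class of barcodes over the CPM in all other clustered barcodes, the 4 libraries summed; circles are the 10 genes and stars the sum of each class's own markers, which named the class. The circles lie near 0 except Hif3a in Atrial cardiomyocyte-like barcodes (-0.92, from 6 UMIs), while the stars reach from 0.51 to 6.41.

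Within the classes, Ddit4 and Bnip3 kept 1 direction between sham and I/R at each age, which not all of the other genes did. In young hearts Ddit4 was higher after I/R in each of the 5 classes. Its log2 ratio was 2.45 (0.85 to 4.76) in Atrial cardiomyocyte-like and 2.24 (1.40 to 3.22) in Erythroid-like barcodes. It was 1.76 (0.85 to 2.82) in Fibroblast-like and 1.46 (0.50 to 2.58) in Macrophage-like barcodes. These overlapping intervals rested on 3, 12, 11 and 10 UMIs in young sham, in that order. Endothelial-like barcodes had 44 UMIs with I/R against 1 UMI without it. In aged hearts the Ddit4 ratios ran from 0.79 in Endothelial-like barcodes, with an interval that included 0, to 1.41 in Fibroblast-like barcodes. Bnip3 ratios ran from 0.99 to 1.44 in young and from 0.50 to 0.65 in aged hearts. For Adm in aged hearts the 5 ratios ran from -1.75 in Macrophage-like to -0.40 in Atrial cardiomyocyte-like barcodes, and the last interval, as well as the Endothelial-like one, included 0. Ankrd37 had 9 UMIs or fewer in each of the 5 classes in each of the 2 young libraries, too few to compare. Its aged ratio was 1.82 (0.67 to 3.22) in Fibroblast-like and 1.62 (0.59 to 2.83) in Macrophage-like barcodes, from 7 and 9 UMIs in aged sham. It was -0.11 (-0.70 to 0.50) in Erythroid-like barcodes, where it had the most UMIs of the 5 classes. In Endothelial-like and Atrial cardiomyocyte-like barcodes it was 0.18 and 0.12, with intervals that included 0. The unnamed barcodes held more Ankrd37 UMIs than any of the 5 classes. There its ratio was -1.15 (-1.92 to -0.38) in young and 0.74 (0.36 to 1.13) in aged hearts. The young ratio of Epas1 was -0.16 (-0.55 to 0.23) in Endothelial-like barcodes, and that of Egln3 ran from -1.001 in Atrial cardiomyocyte-like to -0.26 (-0.97 to 0.48) in Fibroblast-like barcodes. The classes of a condition come from 1 library and share its animals and any free RNA, so agreement between them is not a repeat of the comparison.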

How the data were processed

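Left ventricles were profiled with the 10x Genomics 3′ droplet assay, with 1 library for each of the 4 conditions. The authors deposited raw UMI counts per gene and barcode, made with Cell Ranger 6.0.2 on mm10 according to the submitters' processing notes. The deposited counts are not normalized, and the use of strand or intronic reads is not given in the sources used here. All deposited barcodes were summed per library, and 0 columns of other samples were present. The 10 genes and all lists were chosen with earlier results of these data known.

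Levels were given as CPM of all UMIs with exact 95% Poisson intervals, and log2 ratios with exact conditional (Clopper-Pearson) 95% intervals. Differences between ages had Wald 95% intervals from the 4 counts. Intervals cover counting error only, and no test was made, with 1 library per condition. Totals of 25836175 to 66767829 UMIs per library set the precision. A call was a difference of at least 1.5-fold with at least 50 UMIs over both libraries. Neighbours in order were called inseparable where the interval of their ratio included 0.

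Besides the 10 genes, those named were, for each list, the 2 with the highest mean CPM and those with the largest ratio at each age, and for each of the 10 the 3 nearest in pattern. Other genes that make up a count, and Egln2, were named after their values were seen. A few genes that these rules name are not reported here. Barcodes with at least 200 genes were clustered (2000 variable genes scaled within each library, 10 principal components, 20 neighbours, Leiden resolution 1). A cluster was named where at least 3 markers of a class were 1.5-fold over the rest and no other class had more. The rule for names was set with the clusters in view. No doublet caller was run, and leaving out the top 1% of barcodes by UMIs stood in for it. Promoters came from RefSeq (GRCm38.p6) and positions from GENCODE on GRCm38. Python 3.11.15, numpy 2.4.6, scipy 1.17.1, scikit-learn 1.9.0 and igraph 0.11.9 were used, and the calculations were tested on simulated data. Alternatives were other totals and scalings, minimums of 20, 200 or no UMIs, a 2-fold call, subsets of barcodes and other clusterings.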

Additional observations from a re-analysis of the deposited data

Results flagged for a closer look

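Among the HIF genes and targets followed, Ankrd37 and Egln1 were flagged. The single I/R library lay on opposite sides of its sham library at the 2 ages, and the counting intervals excluded 0. This pattern was not particular to these genes. The median log2 ratio over all genes tested was also negative in young (-0.48) and positive in aged hearts (0.09). From the wider lists, Arnt (-0.60 and 0.35) and Hk2 (-1.16 and 1.05) did the same, with intervals that excluded 0. The share of all genes that did so was not counted. For Ankrd37 the log2 ratio of I/R to sham was -1.41 in young and 0.63 in aged hearts, and the signs were opposite under each scaling and barcode set tried (-0.97 and 0.54 under gene-wise scaling). For Egln1 it was -0.30 in young and 0.18 in aged hearts, and the signs were no longer opposite under gene-wise scaling (0.13 and 0.09). The difference between ages was not tested in either case, since each condition was 1 library.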

How the results depend on the processing

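The limits used here were the main interval or, for counts and percentages, 1.5-fold of the main value. A fall from 3 to 2 of the 10 genes higher in aged I/R under gene-wise scaling was thus within them. Over 526 recomputed values of 111 results, 409 stayed within these limits, 104 moved beyond them, and 13 with a main interval that excluded 0 changed sign. A further 33 values changed sign whose main interval included 0, and these are counted under the first 2 groups: 5 of them arose under gene-wise scaling, for Hif1a (0.43) and Adm (0.27) in young I/R over young sham, Hif1a (-0.09) and Egln3 (-0.02) in aged I/R over aged sham, and the aged minus young difference for Hif1a (-0.52). Of the 13, 8 changed sign under gene-wise scaling: Egln1 in young I/R over young sham (0.13), aged over young I/R for Hif1a (-0.21), Epas1 (-0.060), Egln1 (-0.10), Bnip3 (-0.0052) and Ndrg1 (-0.24), and the aged minus young difference for Epas1 (-0.31) and Egln1 (-0.040). Without Gm42418, Malat1 and mitochondrial genes in the total, Ndrg1 in aged over young I/R (-0.021) and the difference between ages for Epas1 (-0.018) changed sign among these 13. With genes scaled over all libraries together, under which the Endothelial-like class held at most 1.82% of a library's barcodes, its aged ratios changed sign for Epas1 (-0.31), Egln1 (-0.16) and Bnip3 (-0.76). Gene-wise scaling left 1 of the 10 genes lower in young I/R and 1 higher in aged over young I/R, and the total without Gm42418, Malat1 and mitochondrial genes also left 1 higher in the latter. A 2-fold call left 1 higher and 1 lower in young I/R, 1 higher in aged I/R, 0 higher in aged over young sham and 1 higher in aged over young I/R. Leaving out hemoglobin genes or the top 1% of barcodes moved none of the 66 values each was run on beyond its limits. No library could be left out and no paired analysis was possible because each condition was 1 library. Depth limits Hif3a most, with 23 to 121 UMIs per library.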
